A study of Homo sapiens with 45 samples.

Results

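Chromatin contacts in which both partners were captured DNA fragments of the same chromosome were examined in human pluripotent cells kept with or without compounds that act on Polycomb repressive complex 2 (PRC2). A listed contact counted as a member when its bait and its other end lay on 1 chromosome, no more than 2 Mb apart, and the other end was itself a captured fragment. There were 3893 such listings among 434524 in all. They made up 3572 fragment pairs, because 321 pairs were listed from both sides, each fragment serving as bait in turn, and 3251 from 1 side only. The pairs joined 3949 of the 27800 captured fragments in the table. The comparison set was the 137534 other contacts of up to 2 Mb on 1 chromosome, whose other end was not captured.

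The cells were HNES1, an established human embryonic stem cell line, harvested on day 5 of the transition from the naive to the primed state. From 24 h before day 0 they were kept in the solvent DMSO, in UNC6852 at 2.5 µM, a PROTAC that brings about degradation of the PRC2 subunit EED, or in UNC1999 at 1 µM, which inhibits the catalytic subunits EZH1 and EZH2. All 3 conditions shared the transition medium with XAV939. Each had 15 libraries from 3 biological replicates, in 2 batches that held every condition in the same proportions, and the deposited table gave 1 pooled CHiCAGO score per pair and condition. So there was no spread between replicates and no test of a condition, and the read depth behind a score is unknown. Expression, EED protein and the histone mark H3K27me3 were not among the values used, so neither the cells' identity nor the loss of PRC2 function was checked here.

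Polycomb complexes keep developmental genes silent, and PRC2 does so by placing H3K27me3 through EZH1 or EZH2, which need EED for activity. Poised enhancers are distal elements that carry this mark beside features of active enhancers, and they are known to contact the silent promoters of developmental genes in pluripotent cells. In capture Hi-C, fixed chromatin is cut, ligated and pulled down with probes, and a CHiCAGO score measures how far the reads joining 2 fragments exceed what distance and technical bias predict. A contact of 2 captured fragments can be pulled down from either end, so its 2 scores are readings of the same ligation products rather than independent experiments.

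The sequences upstream of 5 gene starts are shown, which lie wholly or mostly on fragments with such contacts, because contacts described further on run to them. SKAP2 encodes a cytoplasmic adaptor protein and neighbours the HOXA genes. HOXD4 and OTP encode homeobox transcription factors, OTP being needed in the developing hypothalamus. HHAT encodes the acyltransferase that palmitoylates Hedgehog proteins, and KCNH1 a voltage-gated potassium channel. The 250 bases before each start are given 5′ to 3′ on the gene's strand, from RefSeq on GRCh38.p14, with each CG dinucleotide in capitals.
SKAP2: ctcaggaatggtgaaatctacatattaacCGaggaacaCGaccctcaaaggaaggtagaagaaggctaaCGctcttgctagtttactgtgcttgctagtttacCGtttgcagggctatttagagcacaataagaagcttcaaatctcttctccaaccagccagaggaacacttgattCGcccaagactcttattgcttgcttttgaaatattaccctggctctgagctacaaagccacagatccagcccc
HOXD4: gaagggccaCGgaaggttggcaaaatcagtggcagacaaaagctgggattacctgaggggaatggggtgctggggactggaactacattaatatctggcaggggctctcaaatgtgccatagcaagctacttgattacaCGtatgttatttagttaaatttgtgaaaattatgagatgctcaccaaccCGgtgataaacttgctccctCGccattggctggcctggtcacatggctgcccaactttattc
OTP: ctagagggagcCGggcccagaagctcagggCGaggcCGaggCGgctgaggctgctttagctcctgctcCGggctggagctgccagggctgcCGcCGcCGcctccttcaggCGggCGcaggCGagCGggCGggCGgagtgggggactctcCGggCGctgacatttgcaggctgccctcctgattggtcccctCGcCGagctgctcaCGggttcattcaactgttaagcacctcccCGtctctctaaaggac
KCNH1: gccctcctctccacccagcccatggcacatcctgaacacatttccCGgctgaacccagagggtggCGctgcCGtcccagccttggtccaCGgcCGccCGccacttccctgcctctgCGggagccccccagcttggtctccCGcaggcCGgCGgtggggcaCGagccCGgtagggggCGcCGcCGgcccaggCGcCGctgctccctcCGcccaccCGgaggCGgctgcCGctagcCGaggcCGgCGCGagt
HHAT: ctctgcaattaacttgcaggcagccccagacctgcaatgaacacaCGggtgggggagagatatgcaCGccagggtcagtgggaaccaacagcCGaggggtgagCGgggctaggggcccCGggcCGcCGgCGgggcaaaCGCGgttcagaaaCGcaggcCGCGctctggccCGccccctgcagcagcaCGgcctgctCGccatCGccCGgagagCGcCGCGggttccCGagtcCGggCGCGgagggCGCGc

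These windows lie at chr7:26857724-26857973 (minus strand) for SKAP2, chr2:176151300-176151549 (plus) for HOXD4, chr5:77638714-77638963 (minus) for OTP, chr1:211134149-211134398 (minus) for KCNH1 and chr1:210328652-210328901 (plus) for HHAT. The SKAP2 window overlaps its fragment over 243 bases and the other windows lie wholly inside theirs. The SKAP2 start is an internal one, and its fragment lies 6.19 kb from the nearest annotated end of the gene. HHAT has 27 CG dinucleotides and KCNH1 25, against 20 for OTP, 5 for SKAP2 and 4 for HOXD4. The median was 20 over the 226 promoters that overlap a fragment with a member contact, 21 over the 2123 on other captured fragments and 16 over the 19833 on none. The sequence GATC, where DpnII cuts, occurs in 37.6% of the first set, 30.0% of the second and 34.2% of all promoters. The SKAP2 window holds 1 GATC, at the first bases of its fragment, and the other 4 hold none. A gene end lay within 1000 bp of 20.6% of the member fragments and of 26.1% of the other captured fragments.

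With a score of at least 5 taken as a call, 1424 of the 3572 pairs were called in DMSO (39.9%) against 1628 with UNC6852 (45.6%) and 1395 with UNC1999 (39.1%). Among the other contacts, 43.1% were called in DMSO against 46.7% with UNC6852 and 42.9% with UNC1999. The order of the profiles was the same in both sets, with UNC6852 highest, but at a threshold of 10 the members' calls were equal or nearly so, at 131, 131 and 130. Values given without names here and further on are in the order DMSO, UNC6852, UNC1999. Relative to DMSO the number of member calls was 1.14 times as large in UNC6852 and 0.980 times in UNC1999, against 1.08 and 0.995 times for the other contacts. Since every listed pair reaches 5 in at least 1 profile, these shares compare profiles and do not measure how common contacts are.

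Most member contacts were called in a single profile. There were 916 pairs called in DMSO alone, 1084 in UNC6852 alone and 887 in UNC1999 alone, together 80.8% of all members, against 76.1% of the other contacts. A further 495 were called in 2 profiles. All 3 profiles called 190 pairs, which is 5.32% of the members, against 8.84% of the other contacts.

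Of the 1424 DMSO calls, 367 were also calls in UNC6852, a kept share of 25.8% (exact Clopper-Pearson 95% interval 23.5 to 28.1%). UNC1999 kept 331 of them, or 23.2% (21.1 to 25.5%). The 2 treated profiles kept each other's calls no better. Of the UNC6852 calls 22.5% (20.5 to 24.7%) were calls in UNC1999, and of the UNC1999 calls 26.3% (24.0 to 28.7%) were calls in UNC6852. These intervals cover counting error only, and pairs that share a fragment are not independent.

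Contacts with an uncaptured other end were kept more often, at 32.7% from DMSO to UNC6852, 30.6% from DMSO to UNC1999, 30.5% from UNC6852 to UNC1999 and 33.2% from UNC1999 to UNC6852. Weighted to the members' distances and scores, these shares were 35.9, 33.6, 32.4 and 35.7%. Subtracting these from the members' shares gave -10.1, -10.3, -9.85 and -9.39 percentage points. The gap was of like size whether or not DMSO was one of the profiles. The fragments differed in size: the median length was 689 bp for a captured member fragment and 5271 bp for an uncaptured other end. Only 53 DMSO calls had an uncaptured other end of at most 1567 bp, of which UNC6852 kept 30.2% (18.3 to 44.3%) and UNC1999 39.6% (26.5 to 54.0%). The part of fragment length in the gap was not tested beyond these few calls.

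**Figure D1:**
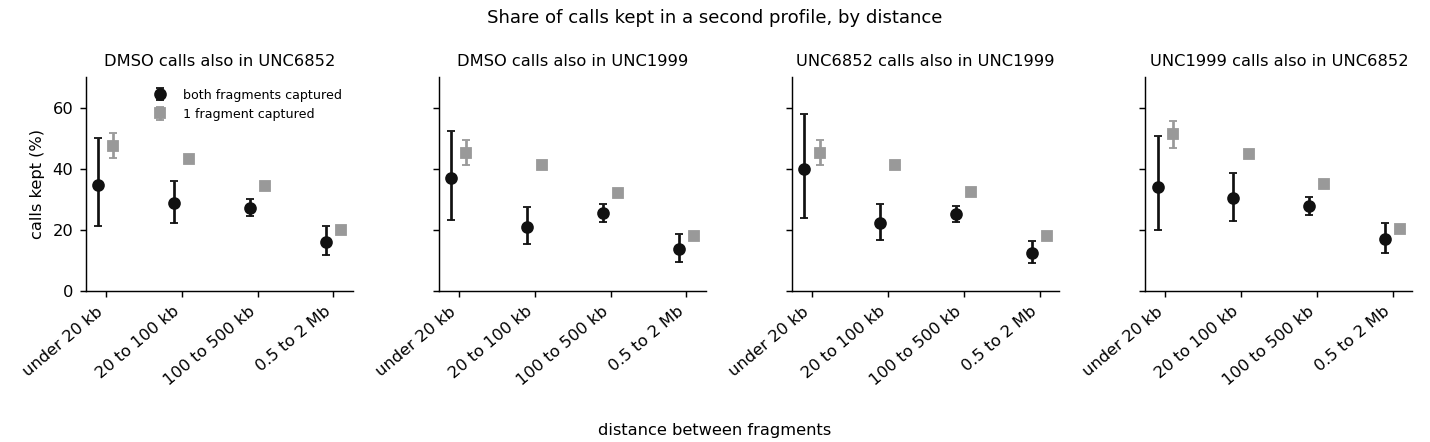
Share of calls in 1 profile that were also calls in a second (y axis, percent) by distance between the fragments (x axis), for pairs with both fragments captured (black circles) and with 1 captured (grey squares). Bars are exact 95% intervals for counting error. In every panel the black points lie below the grey ones, and both are lowest at 0.5 to 2 Mb.

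The members spanned a median of 246 kb (quartiles 144 and 432 kb), and 2339 of them lay 100 to 500 kb apart. Only 86 were under 20 kb and 414 at 20 to 100 kb, while 733 spanned 0.5 to 2 Mb. Kept shares were lower at long range: from DMSO to UNC6852 the share was 28.7% (22.3 to 35.9%) at 20 to 100 kb, 27.3% (24.5 to 30.2%) at 100 to 500 kb and 16.1% (11.8 to 21.3%) at 0.5 to 2 Mb. The corresponding shares for UNC1999 were 21.0, 25.5 and 13.7%.

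As a share of the pairs called in UNC6852 or DMSO but not in both, UNC6852 was highest in the long contacts. At 0.5 to 2 Mb, 298 pairs were called in UNC6852 and not in DMSO and 208 the other way round, so that UNC6852 held 58.9% of the pairs called in one of these profiles only (54.5 to 63.2%). The same share was 54.2% (53.5 to 54.9%) for other contacts at this distance, just below the lower bound for the members. At 100 to 500 kb the members gave 798 against 690 (53.6%), and under 20 kb the order was turned, with 19 against 30 (38.8%, 25.2 to 53.8%). UNC1999 showed no such surplus, with 213 pairs against 214. On the asinh scale, which compresses high scores, the median difference from DMSO over these 733 pairs was 0.21 for UNC6852 and 0 for UNC1999. Over other contacts at this distance it was 0.004 for UNC6852 and 0 for UNC1999. Over all 3572 pairs it was 0.06 for UNC6852 and 0 for UNC1999, with quartiles at -0.88 and 1.16 and at -0.92 and 0.95. Over all other contacts it was 0.04 and 0, with quartiles at -0.60 and 0.74 and at -0.68 and 0.67. Single pairs thus moved widely in both directions around a centre near 0.

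The 321 pairs listed from both sides gave 2 readings each. Pearson's r between the asinh scores of the sides was 0.89 in DMSO against 0.90 with UNC6852 and 0.91 with UNC1999, across pairs whose sides come from the same libraries. Of the pairs called from either side, both sides reached 5 in 67.9% (60.2 to 74.8%) in DMSO against 79.9% (72.9 to 85.7%) with UNC6852 and 74.0% (66.9 to 80.3%) with UNC1999. The treated-minus-DMSO difference had the same sign on both sides in 305 of 321 pairs for UNC6852 and 294 for UNC1999. These are pairs whose sides each reached 5 in at least 1 profile, so pairs with unlike sides are largely not among them. Since both sides also count the same ligation products, this does not measure how another set of libraries would have scored a pair.

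**Figure D2:**
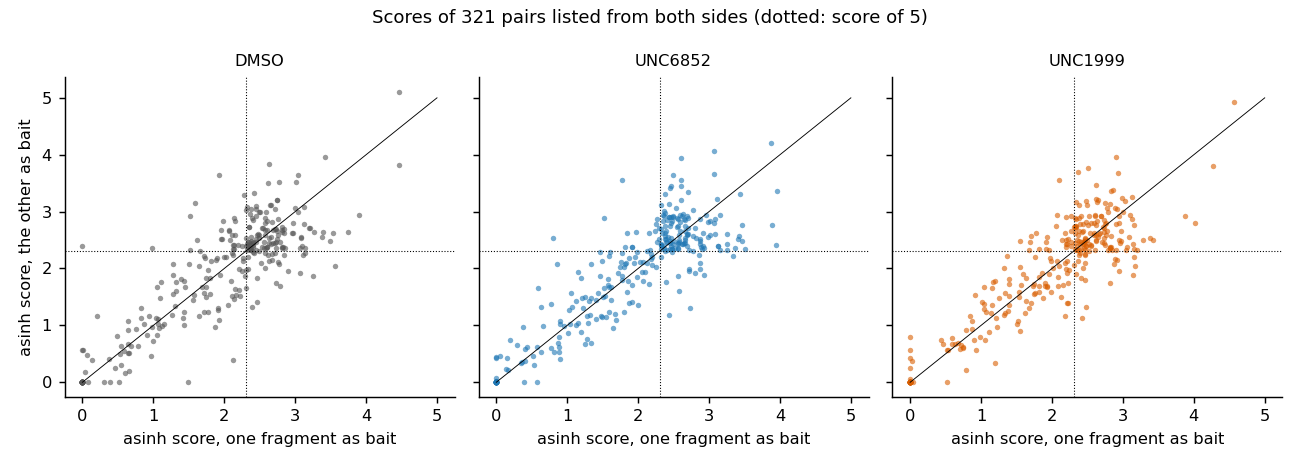
Asinh CHiCAGO score with one fragment as bait (x axis) against the score with the other as bait (y axis), 1 point for each of the 321 pairs listed from both sides, in each profile. The solid line marks equal scores and dotted lines a score of 5. Points follow the line, with r of 0.89 to 0.91.

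For the 3251 pairs listed from 1 side the table gives no second score, so the sides could not be compared there. Listing from both sides was tied to the height of the score. Part of this is built in, since a side is listed only where it reaches 5 in some profile. The highest score of a pair listed from both sides is also taken over more readings. Where the highest score of a pair lay between 5 and 6, 3.27% of 1621 pairs were listed from both sides (2.46 to 4.26%), and where it was 15 or more, 48.4% of 62 pairs were (35.5 to 61.4%). Among the 3251 pairs listed from 1 side, the bait of 2437 had fewer listed contacts than its partner, with medians of 12 and 24. Bait and partner differed little in length, with medians of 676 and 750 bp.

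Joined through shared fragments, the 3572 pairs formed 1100 separate groups, of which 719 were a single pair. Of the fragments, 68.1% had 1 captured partner, while 249 had at least 5 and 58 at least 10. The 10 groups with most fragments held 1025 pairs, 28.7% of all, and 82 of the 190 pairs called in all 3 profiles. By the genes on or near them these groups were the 4 HOX clusters and regions of OTP, PAX3, MEF2C, FOXD2, FOXA2 and FOXA1.

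HOX genes are clustered homeobox genes that set position along the body axis. Of 41 genes listed for the HOX clusters, 36 had an end within 1000 bp of a captured fragment. A member fragment lay as near to 32 of them, all HOX genes. Over all protein-coding genes, 694 of 20046 had an end by a member fragment, but that total includes genes far from any captured fragment. Counting only genes by a captured fragment, the other lists ran from 0 of 5 pluripotency genes to 20 of 42 mesendoderm genes. Other homeobox genes had 42 of 106. The 177 pairs of the HOX list were called 83 times in DMSO against 76 times with UNC6852 and 69 times with UNC1999, and 11 pairs were called in all 3. These are 46.9, 42.9 and 39.0% of their pairs, beside 39.9, 45.6 and 39.1% over all members. With a window of 0 or 5000 bp the pairs numbered 69 or 325. UNC6852 kept 32.5% (22.6 to 43.7%) of their DMSO calls and UNC1999 24.1% (15.4 to 34.7%), intervals that include the shares over all members. The clusters did not follow one order. In the group around HOXC on chromosome 12, calls numbered 83 in DMSO against 70 with UNC6852 and 53 with UNC1999 over 169 pairs. The HOXA group on chromosome 7 had 57, 63 and 47 over 127 pairs, and the HOXD group on chromosome 2 had 50, 54 and 44 over 101. The smaller HOXB group on chromosome 17 had 13, 17 and 13 over 41 pairs. None of these was called in all 3 profiles, beside 5.32% of all members. UNC1999 had the fewest calls in the HOXC, HOXA and HOXD groups, or tied with DMSO in HOXB.

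**Figure D3:**
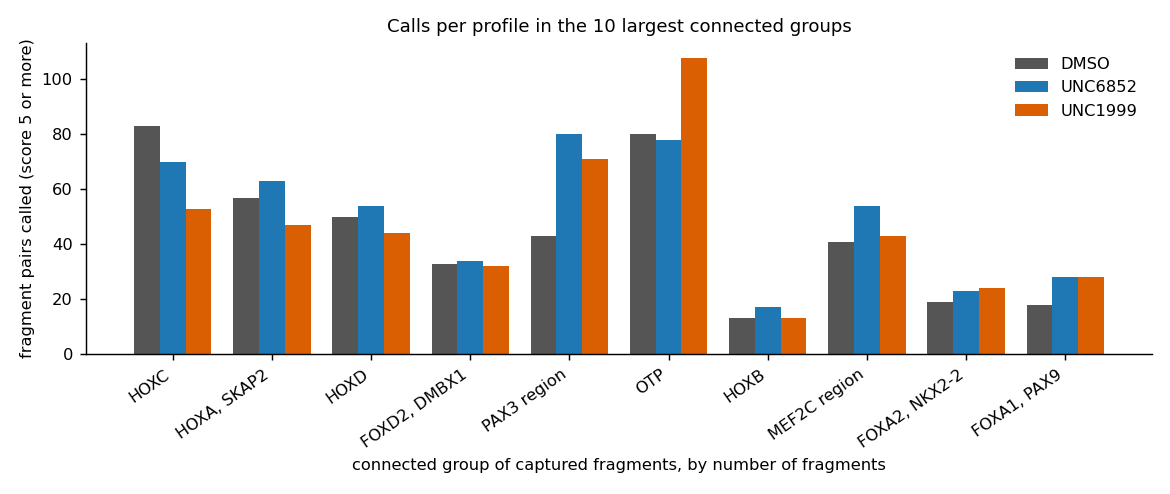
Number of fragment pairs with a score of at least 5 (y axis) in each profile, for the 10 connected groups with most fragments (x axis, named by their genes). DMSO is highest in the HOXC group with 83 calls, UNC1999 in the OTP group with 108, and the PAX3 region has 43 calls in DMSO against 80 with UNC6852 and 71 with UNC1999.

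Single fragments gathered the HOXD and HOXA genes from a distance. The captured fragment with most partners, 26 in all, lay at chr2:176645442-176646700, 307 kb from the nearest gene end, that of MTX2, which encodes a mitochondrial import protein. All its partners lay 458 to 561 kb away in or beside the HOXD cluster. Of them 15 were called in DMSO against 22 with UNC6852 and 12 with UNC1999, beside 39.9, 45.6 and 39.1% over all members. All 3 profiles called 7 of them, beside 5.32% of all members. The contact of this distal fragment with the HOXD4 fragment, whose upstream sequence is shown above, scored 13.4 in DMSO against 18.4 with UNC6852 and 10.3 with UNC1999. Its contact with a fragment by HOXD8 scored 17.6, 16.5 and 10.4. Both stayed well above 5 in every profile. They belong to the 7 contacts of the distal fragment called in all 3 profiles. The fragments it contacted between HOXD8 and HOXD4 belong to these 7 as well. Most of its other contacts in or beside the cluster were not called in every profile. Of the fragments around HOXD11, one scored 13.3 in DMSO against 0.607 with UNC6852 and 0 with UNC1999, and another 1.75, 11.8 and 0. A second distal fragment, at chr2:176652840-176653724, had 17 partners. Its contact with the same HOXD4 fragment scored 11.1, 0 and 5.41, and with the same HOXD8 fragment 11.3, 6.97 and 8.88. The HOXD4 contact was thus not called in every profile from there.

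The fragment with 23 partners, at chr7:26862758-26864113, lies inside SKAP2. Of its partners 22 lay in or beside the HOXA cluster, 225 to 325 kb away, and 1 lay 466 kb to the other side. They were called 17 times in DMSO against 13 with UNC6852 and 11 with UNC1999, beside 39.9, 45.6 and 39.1% over all members. The contact with HOXA4, read from both sides, scored 2.16 and 5.02 in DMSO against 5.33 and 9.73 with UNC6852 and 4.44 and 9.07 with UNC1999. With a HOXA3 fragment it scored 10.95, 6.82 and 1.87, and with the next HOXA3 fragment 8.32, 2.54 and 6.82. The profiles thus ordered neighbouring fragments of 1 gene differently. A second SKAP2 fragment, which holds most of the upstream window shown above but not the start itself, had 16 partners, called 8, 9 and 8 times.

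**Figure D4:**
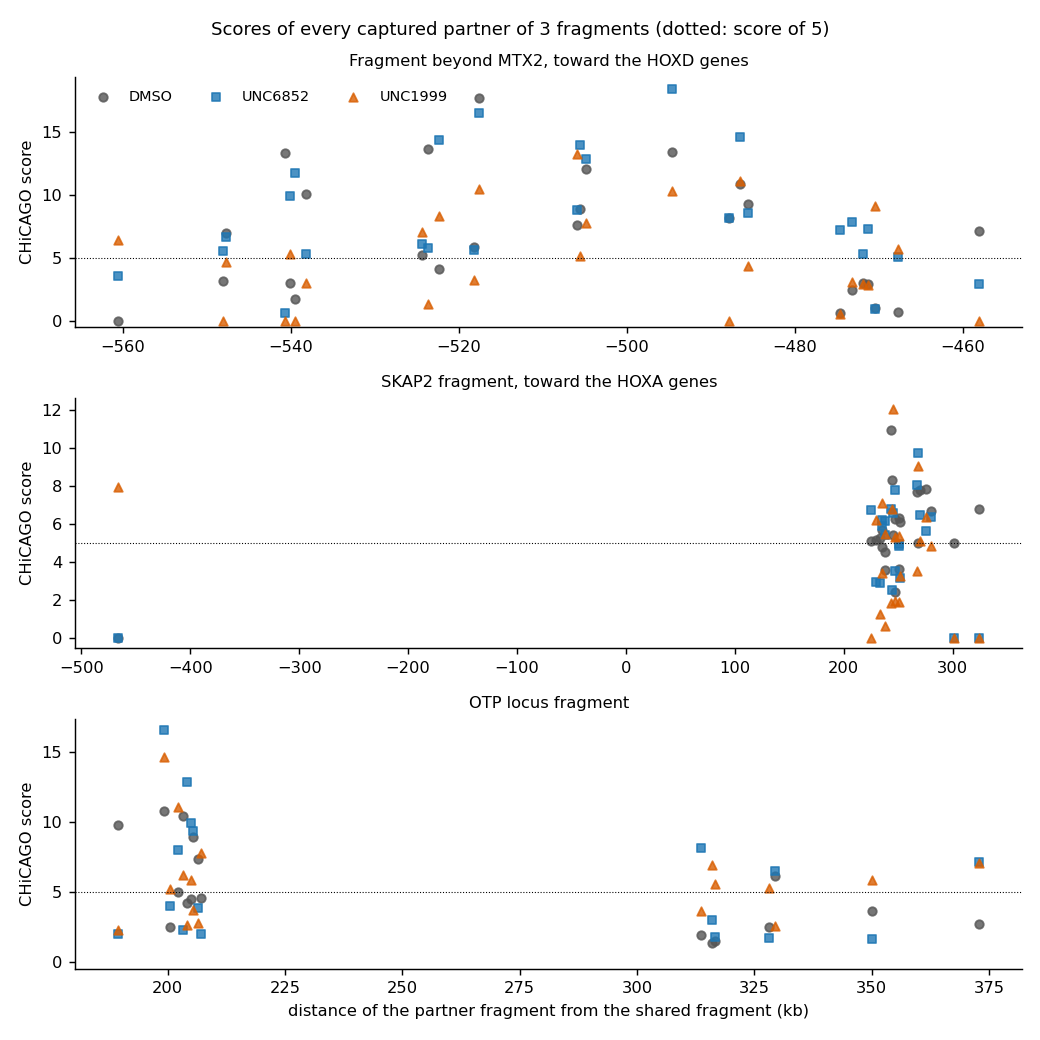
CHiCAGO score (y axis) of every captured partner of 3 fragments against its distance from the shared fragment in kb (x axis), in DMSO (grey circles), UNC6852 (blue squares) and UNC1999 (orange triangles). The upper panel is the fragment beyond MTX2, the middle the SKAP2 fragment and the lower a fragment 4.93 kb from OTP. The dotted line is a score of 5, and points of all 3 profiles lie on both sides of it within each cluster of partners.

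OTP gave the most contacts of any gene, 35 pairs, called 18 times in DMSO against 13 with UNC6852 and 25 with UNC1999. Its group on chromosome 5 held 164 pairs, called 80, 78 and 108 times, and 51 of the pairs were listed from both sides. UNC6852 kept 43.8% (32.7 to 55.3%) of the group's DMSO calls and UNC1999 60.0% (48.4 to 70.8%). Over all members 39.9, 45.6 and 39.1% of pairs were called, and the kept shares were 25.8 and 23.2%. Most contacts of the OTP group ran between fragments at or beside OTP and a distal stretch about 205 kb away. The fragment with the OTP start shown above had 9 partners, called 4 times in DMSO against 4 with UNC6852 and 8 with UNC1999. In this group UNC1999 had the most calls. Within it, single pairs went from 0 on both sides in DMSO to 13.0 and 5.08 in UNC6852 at 208 kb, and from 0 on both sides to 11.7 and 7.90 in UNC1999 at 214 kb.

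In the region of PAX3, a paired-box gene of neural crest and muscle, calls were fewer in DMSO than under either compound: 43, 80 and 71 over 134 pairs. Among all members 39.9, 45.6 and 39.1% were called, so UNC6852 had the most calls there too. A fragment 146 kb from PAX3 at chr2:222053109-222053640 had 22 partners, called 8 times in DMSO and 16 times under each compound. RNF228, in this group, had 6, 13 and 8 calls over 22 pairs, and SGPP2, a sphingosine-1-phosphate phosphatase gene, had 4, 8 and 14 over 21. The group of FOXA1, NKX2-1 and PAX9 on chromosome 14, genes of endoderm and its derivatives, had 18, 28 and 28 calls over 63 pairs of a median 935 kb. Of them 1 was called in all 3 profiles, beside 2.18% of all members at 0.5 to 2 Mb. That pair, from a PAX9 fragment to a fragment near FOXA1, scored 5.35 in DMSO against 5.45 with UNC6852 and 8.10 with UNC1999.

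Of the 3572 pairs 133 (3.72%) had the end of a protein-coding gene at both fragments, 4 of them an end of the same gene, 1039 at 1 and 2400 at neither, counting ends within 1000 bp. The first count was 7 within 0 bp and 611 within 5000 bp. Calls among the 133 were nearly equal over the profiles, at 51, 51 and 50, yet 1 pair alone, SKAP2 with HOXA4, was called in all 3. Of the 1039 pairs 36 were called in all 3, and of the 2400 pairs 153. PDX1 and CDX2, homeobox genes of pancreas and intestine 39.7 kb apart, scored 7.71 in DMSO against 3.84 with UNC6852 and 8.47 with UNC1999. PAX9 and FOXA1, 934 kb apart, scored 9.001, 4.28 and 6.19. ZIC4, which encodes a zinc-finger factor of the cerebellum, had 16 pairs called 10 times in DMSO against 4 with UNC6852 and 6 with UNC1999. The shares called among all members were 39.9, 45.6 and 39.1%.

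Other homeobox genes had 151 pairs called 64, 65 and 62 times (42.4, 43.0 and 41.1%). Genes of neural and neural crest development had 62 pairs called 23, 29 and 22 times (37.1, 46.8 and 35.5%), and genes of mesendoderm 69 pairs called 24, 36 and 28 times (34.8, 52.2 and 40.6%). Over all members the shares were 39.9, 45.6 and 39.1%. Signalling genes had 30 pairs called 14 times in DMSO against 5 with UNC6852 and 12 with UNC1999 (46.7, 16.7 and 40%). UNC6852 kept none of their 14 DMSO calls (0 to 23.2%) while UNC1999 kept 1 (0.181 to 33.9%). The kept shares over all members were 25.8 and 23.2%. The calls are few, the intervals cover counting error only, and the list is 1 of 8. No difference in kept share was therefore concluded for the signalling list. In that list WNT10A was joined to a fragment at WNT10A and WNT6, both encoding Wnt ligands, with scores of 2.71, 4.51 and 5.48. Polycomb and trithorax genes had 6 pairs, as did genes of axon guidance and adhesion, and genes of pluripotency had none, 5 of that list being at a captured fragment at all.

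Among pairs read from both sides, the largest falls from DMSO ended at or near 0. A fragment near NKX2-1 and one near FOXA1, 1073 kb apart, scored 13.0 and 6.94 in DMSO and 0 on both sides under each compound. The contact of the HHAT and KCNH1 fragments, 806 kb apart, scored 16.3 and 5.997 in DMSO against 0 and 0.457 with UNC6852 and 0 and 0 with UNC1999. Neither promoter fragment had another captured partner. Both comparisons with DMSO share that profile.

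Among the largest rises from DMSO, a fragment near CNPY1 and one at MNX1, a motor neuron and pancreas homeobox gene 1493 kb away, scored 0 on both sides in DMSO and UNC1999 and 5.80 and 15.7 in UNC6852. HAND1, a factor of heart and extraembryonic mesoderm, and a fragment 132 kb away scored 0 in DMSO against 1.00 and 0.650 with UNC6852 and 10.9 and 6.35 with UNC1999. Contacts of the FOXA1 locus also rose, beside the fall given above. A fragment 8.57 kb from PAX9 and the FOXA1 fragment of the PAX9 pair above, 942 kb apart, scored 0 on both sides in DMSO and UNC1999. In UNC6852 the sides scored 10.7 and 8.16. The MNX1 neighbourhood, looked at after these values were seen, also held the reverse. The same CNPY1 fragment and the fragment directly beside the MNX1 one scored 10.1 in DMSO and 0 under both compounds. Another pair of these loci scored 7.48 and 7.38 in DMSO and 0 on both sides under each compound. So the calls between these loci in DMSO and in UNC6852 used different pairings, though they shared the CNPY1 fragment in one case and the MNX1 fragment in the other.

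Neighbouring fragments were therefore merged into loci where they lay at most 2 fragments apart. The 3572 pairs fell into 2498 locus pairs, of which 520 held 2 or more fragment pairs and 65 held 5 or more. Of the DMSO locus pairs UNC6852 kept 33.4% and UNC1999 31.3%, above the 25.8 and 23.2% of fragment pairs. The kept share was far higher where more fragment pairs were called. UNC6852 kept 24.0% (21.3 to 27.0%) of the 903 DMSO locus pairs called through 1 fragment pair, 68.9% (59.8 to 76.9%) of the 122 called through 2, all 42 called through 3 or 4 and all 20 called through 5 or more. UNC1999 kept 22.4, 63.1, 97.6 and 100% of those called through 1, 2, 3 to 4, and 5 or more. Between the treated profiles the shares were alike, at 22.2, 56.2, 88.4 and 100% from UNC6852 to UNC1999. More fragment pairs also give more chances to reach 5, and this grouping was chosen after the values were seen.

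**Figure D5:**
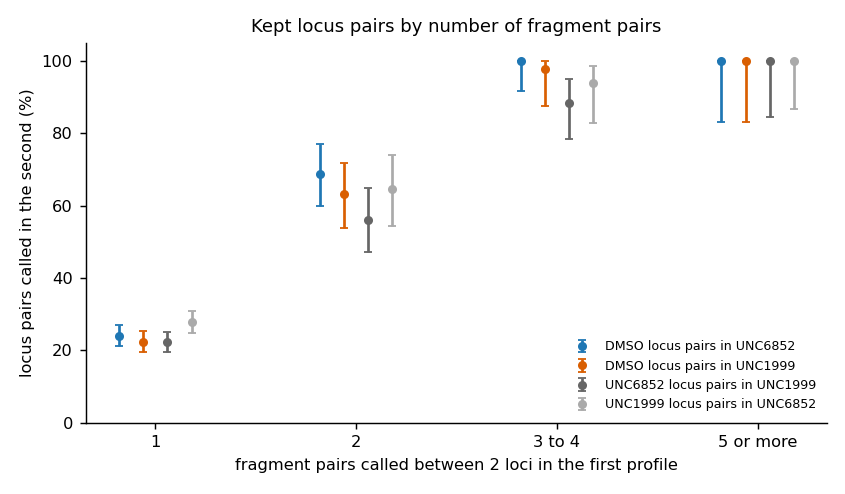
Share of locus pairs called in 1 profile that were also called in a second (y axis, percent) by the number of fragment pairs called in the first (x axis), for 4 ordered pairs of profiles. Bars are exact 95% intervals for counting error. From DMSO to UNC6852 the share is 24.0% at 1 fragment pair, 68.9% at 2 and 100% at 3 to 4.

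The highest scores were few and were singled out after the values were seen. At the top stood a pair 1253 kb apart on chromosome 7. It was read as 43.4 and 82.7 in DMSO against 23.9 and 33.7 with UNC6852 and 48.4 and 68.7 with UNC1999. The nearest protein-coding gene ends lay 2694 and 1441 kb from its fragments, and how well reads map there was not examined. Next came a pair 342 kb apart on chromosome 1. It scored 43.5 and 22.6 in DMSO, 26.2 and 14.4 with UNC6852, and 35.8 and 22.4 with UNC1999. The pairs named below are a selection from the highest by mean score. Between BLK, a B-cell kinase gene, and a fragment nearest to GATA4, a cardiac and endodermal factor, 182 kb apart, the sides scored 17.6 and 3.77 in DMSO against 25.8 and 5.58 with UNC6852 and 27.8 and 8.23 with UNC1999. A pair of fragments on either side of FOXA2, 344 kb apart, scored 6.93 and 23.1, 6.0003 and 19.1, and 9.03 and 26.1. A fragment near BARX2 and its partner 387 kb away scored 12.8 and 3.18 in DMSO against 24.5 and 7.89 with UNC6852 and 24.1 and 9.21 with UNC1999. These contacts were called from at least 1 side in all 3 profiles. Not every pair with a high mean score was. A pair 1043 kb apart on chromosome 9 scored 27.2 in DMSO against 0.548 with UNC6852 and 16.9 with UNC1999. Its fragment at chr9:62748561-62799355 is far longer than the members' median of 689 bp. With the fragment directly beside that partner it scored 12.2, 31.8 and 11.7, called in all 3 profiles. How well reads map there was not examined either.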

How the data were processed

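Poised-enhancer capture Hi-C was done on 15 libraries in each of 3 conditions. The deposited table gives CHiCAGO scores, pooled by the authors over the libraries of a condition per the labels, on GRCh38 per the submitters' processing notes. Aligner, caller version and settings are not given in the sources used here. Distances are those of the deposited table.

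Pairs listed from both sides were united by the higher score, and a score of 5 or more was a call. Other contacts were weighted to the members by distance class and score class in the first profile. Gene ends are both annotated ends of 20046 RefSeq protein-coding genes, within 1000 bp of a fragment. The promoter table held 15842 of these genes, so it served for sequences only. Fragments were chosen for naming by rank: the 10 gene-to-gene pairs with the highest mean score, the top pair of each list, the 5 largest falls and rises per compound among pairs read from both sides, the fragments with most partners and the largest groups. Pairs of at least 20 kb entered these ranks. The members and lists were chosen with earlier results of these data known. The calculation was tested on simulated data. Python 3.11.15, numpy 2.4.6, pandas 2.3.3, scipy 1.17.1 and networkx 3.6.1 were used.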

Additional observations from a re-analysis of the deposited data

How the results depend on the processing

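Fewer calls remained at a score threshold of 7 (DMSO 466, UNC6852 531, UNC1999 461) and of 10 (131, 131 and 130), where UNC6852 no longer had the most. No paired analysis was possible because each condition has 1 pooled profile. From DMSO to UNC6852 the kept share was 22.8% when every listed side had to reach the threshold and 33.4% for merged loci. In the former setting, pairs listed from 1 side stayed in and were judged on that side alone. By the higher side, UNC6852 kept 47.0% and UNC1999 51.2% of the 168 DMSO calls listed from 2 sides. For the 1256 listed from 1 side these shares were 22.9 and 19.5%. From DMSO to UNC1999 the kept share was 26.4% at 7, 28.2% at 10 and 19.0% with every listed side. It was 25.8% without a distance limit and 31.3% for merged loci. Between the treated profiles it was 25.2% at 10 from UNC6852 to UNC1999. With every listed side it was 19.7 and 23.3%, and for merged loci 31.0 and 36.2%. The gap to other contacts stayed below 0 under all 20 alternatives tried for it. For UNC6852 it was -12.9 points at 7, -19.4 at 10 and -7.23 for merged loci. For UNC1999 it was -14.9 at 10, -12.5 with every listed side, -7.68 without a distance limit and -7.47 for merged loci. Quantile normalization changed the median score difference to 0 for UNC6852 and -0.063 for UNC1999. Both sides were called in 28.8, 22.1 and 31.2% at 7 (DMSO, UNC6852, UNC1999) and in 13.3, 14.3 and 9.30% at 10. Pairs with gene ends at both fragments numbered 7 within 0 bp, 611 within 5000 bp and 66 with gene starts, an alternative chosen after seeing the data. Pairs with 1 gene end numbered 356, 1782 and 692, and pairs with a gene of the HOX list 69, 325 and 74. The other 83 of 125 alternative values lay within 1.5 times the main count or the main interval. The cause of these moves was not tested beyond what each alternative's construction shows. Unknown depth and pooled scores limit every comparison.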
